A study of Mus musculus with 2 samples.

Results

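This report describes 10 marker genes of the dendritic cell lineage in RNA from a mouse cell sort for blood stem cells, out of 17216 genes measured. The genes were chosen by name, as markers of plasmacytoid dendritic cells (Siglech, Cox6a2, Ccr9, Spib, Klk1 and Runx2) and of conventional dendritic cells (Xcr1, Clec9a, Batf3 and Zbtb46), with their FPKM values in these same libraries already known. Their differences between the libraries are therefore given as a description and were not tested. MHC class II genes were not included. The study compared a sort for long-term haematopoietic stem cells, which maintain all blood lineages from the bone marrow, between C57BL/6 wild type mice and Ccp3-/- mice of the same strain, the wild type animals being littermates. The sort took lineage-negative cells with Sca-1, c-Kit and CD150 and without CD48. There was 1 library per genotype. The labels do not give the number, age or sex of the mice or the deleted part of the gene, and do not say if animals were pooled.

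Dendritic cells are immune cells that sense microbes and present antigen to T cells. Plasmacytoid dendritic cells circulate as round cells, carry endosomal receptors for nucleic acids and release large amounts of type I interferon. They need the E protein TCF4 to form and to keep their identity. Conventional dendritic cells of type 1 take up dead cells and present their antigens to cytotoxic T cells, and they need IRF8 and BATF3. Both kinds arise from bone marrow progenitors that depend on the receptor FLT3, and neither mature kind belongs to the stem cell gate.

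The values were FPKM, fragments scaled by transcript length and library depth. The tables held 16532 genes for wild type and 16318 for the knockout label, from about 15.4 M and 14.3 M reads as estimated from the spacing of low values. Agbl3, which encodes CCP3, was listed at 1.11 and 0.66 FPKM (ratio 0.595, 95% counting interval 0.289 to 1.19). Since the deleted part is not given, this value did not check the genotype, and "knockout-labelled" refers to the label throughout. RNA of Cd48, the surface protein that sorted cells should lack, stood at 136 and 114 FPKM, and that of Slamf1, which encodes CD150, at 2.14 and 3.40 FPKM, while the other genes the gate requires, Kit and Ly6a (Sca-1), stood at 59.7 and 56.5 and at 49.1 and 28.4 FPKM. In both libraries Cd48 was thus above all 3 required genes, and Ly6a had a ratio of 0.578 (0.509 to 0.656). With no replicates there was no test between genotypes. Values are given in the order wild type, then knockout-labelled library. A gene is called measurable when its mean over both libraries was 1 FPKM or more. Every interval below covers counting error only, and reads without molecular identifiers are not independent molecules. In bulk RNA, fewer cells of a type and less RNA per cell cannot be told apart.

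For the 5 plasmacytoid markers that were lower, the sequence ahead of the start site is shown where the promoter table holds it. These promoters were picked after the values were seen, and common control of the genes was not tested. RefSeq promoters of GRCm38.p6 matched 9 of the 10 genes, and Cox6a2 had no entry. Capitals mark the E box, the letters CANNTG. Sites of E proteins such as TCF4 have these letters, but not every match is such a site. Each sequence begins 250 bases before the start site and ends before the first annotated exon base. Siglech lies on the plus strand at chr7:55767934-55768177, Ccr9 on the plus strand at chr9:123766961-123767168, Spib on the minus strand at chr7:44532072-44532321, and Klk1 on the plus strand at chr7:44225110-44225359.
Siglech: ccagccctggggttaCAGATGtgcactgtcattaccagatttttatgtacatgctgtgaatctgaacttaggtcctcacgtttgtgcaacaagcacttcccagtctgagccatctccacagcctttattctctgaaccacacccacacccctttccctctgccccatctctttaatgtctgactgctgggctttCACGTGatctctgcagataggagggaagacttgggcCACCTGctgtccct
Ccr9: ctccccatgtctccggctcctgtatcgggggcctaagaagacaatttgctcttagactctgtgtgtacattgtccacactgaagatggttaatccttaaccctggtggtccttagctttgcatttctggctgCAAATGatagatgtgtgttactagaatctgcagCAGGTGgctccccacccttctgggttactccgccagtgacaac
Spib: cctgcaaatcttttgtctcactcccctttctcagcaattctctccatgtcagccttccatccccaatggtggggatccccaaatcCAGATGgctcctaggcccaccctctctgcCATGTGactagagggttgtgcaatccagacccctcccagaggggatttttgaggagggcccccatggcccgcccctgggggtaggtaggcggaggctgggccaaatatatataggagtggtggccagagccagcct
Klk1: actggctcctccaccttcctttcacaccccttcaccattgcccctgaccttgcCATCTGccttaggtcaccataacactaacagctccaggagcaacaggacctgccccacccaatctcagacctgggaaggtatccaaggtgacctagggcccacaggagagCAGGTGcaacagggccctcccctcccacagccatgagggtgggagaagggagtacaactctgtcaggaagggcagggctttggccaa

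All 9 members with a promoter had an E box within the 250 bases before the start, and so did 66.2% of the 32841 promoters in the table. Siglech had 3, at 235, 56 and 20 bases before the start, and the second of these is the palindrome CACGTG. Zbtb46 had 5. The core of ETS factors such as PU.1 and Spi-B, GGAA on either strand, was found in 8 of the 9 and in 93.5% of all promoters. The longer PU.1 and Spi-B core GAGGAAGT was found in 0 of the 9 and in 2.44% of all promoters. The Runx letters TGTGGT were found in Siglech and Runx2, against 14.0% of all promoters, and the interferon letters GAAANNGA in Runx2, against 18.1%. GGAA lies within GAGGAAGT, and all motifs were searched on both strands. These matches describe letters and do not show binding.

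Siglech, Cox6a2, Ccr9, Spib and Klk1 were each lower in the knockout-labelled library, with FPKM ratios between 0.252 and 0.438. These 5 members were chosen with those values known, and 2.79% of all measurable genes were at least 2-fold lower in FPKM. Runx2, the most abundant member, was at the same level in both libraries. The 4 conventional markers were at or below 1.21 FPKM in either library, and none of their ratios had a counting interval that left out 1.

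**Figure D1:**
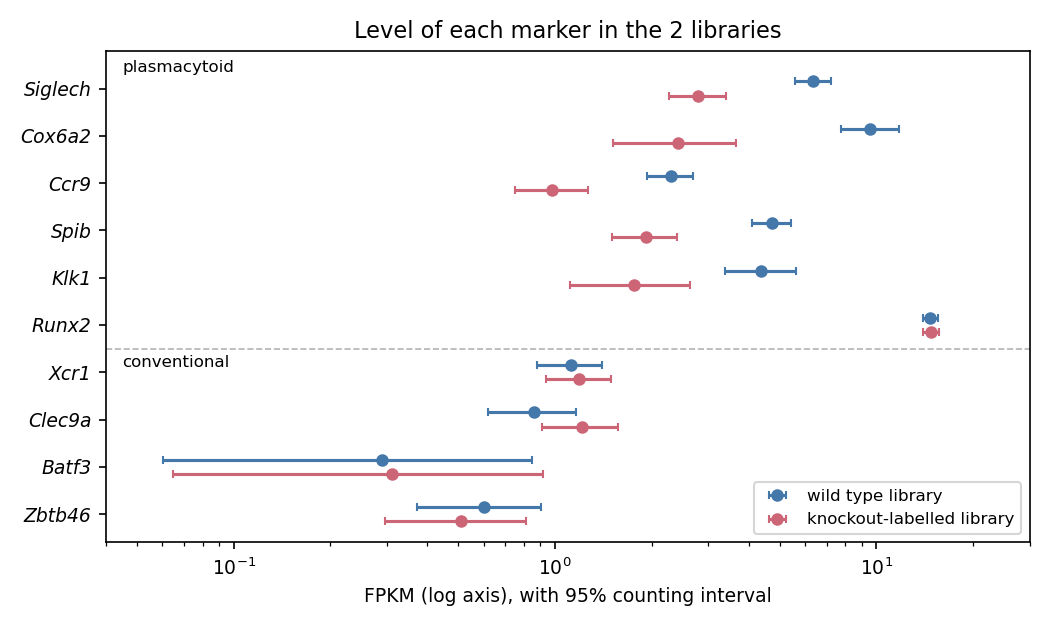
FPKM of the 10 markers on a log axis in the wild type library (blue) and the knockout-labelled library (red), with 95% Poisson counting intervals as bars and 1 library per genotype. Siglech, Cox6a2, Ccr9, Spib and Klk1 are lower in the knockout-labelled library with intervals that do not overlap, while Runx2 stands at 14.7 and 14.8 FPKM and the conventional markers overlap.

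Siglech encodes a sialic-acid-binding surface receptor that is the standard marker of mouse plasmacytoid dendritic cells. Its level was 6.37 FPKM in the first and 2.79 FPKM in the second, from about 238 and 97 reads. The ratio was 0.438 (95% counting interval 0.341 to 0.555). Of 7 other Siglec genes listed, 5 were measurable, and 0 of those 5 differed by 1.5-fold on the log2(FPKM + 1) scale. Among all measurable genes, 6.13% were that much lower and 6.11% that much higher. Most genes thus did not differ by that rule, and nothing particular to Siglec genes is read from this count. Siglecg, known from B cells, was listed at 9.12 and 7.21 FPKM, and Siglece, known from myeloid cells, at 5.15 and 7.40 FPKM.

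Cox6a2 encodes a subunit of cytochrome c oxidase that is best known from heart and skeletal muscle and is also made by plasmacytoid dendritic cells. Levels of 9.58 and 2.41 FPKM were found, from about 94 and 22 reads, with a ratio of 0.252 (0.151 to 0.404), the lowest of the 10. Its widely expressed paralog Cox6a1 was listed at 185 and 160 FPKM, a ratio of 0.867 (0.801 to 0.938). Muscle genes are given beside it, and their part in the Cox6a2 value was not tested. Ckm, muscle creatine kinase, was listed at 0.28 and 0.20 FPKM, and the myoglobin gene Mb and the myosin gene Myh7 were not listed. Of 10 muscle genes, 7 were listed and 2 were measurable, namely the troponin gene Tnni3 (7.27 and 5.34 FPKM) and Cox7a1 (2.57 and 1.18 FPKM), the latter lower by 1.5-fold or more on the log2(FPKM + 1) scale, with a ratio of 0.459 (0.145 to 1.27).

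Ccr9 encodes the receptor for the chemokine CCL25, which guides plasmacytoid dendritic cells and T cells to the gut and thymus. Ccr9 stood at 2.29 and 0.98 FPKM, from about 151 and 60 reads, with a ratio of 0.428 (0.313 to 0.583). Since T cell precursors also carry it, the T lineage list is given beside it. Of 8 measurable T lineage genes, 3 were lower by 1.5-fold or more and 0 higher, against 6.13% and 6.11% of all measurable genes. The 3 were Lck (17.6 and 11.2 FPKM), Cd4 (4.29 and 1.75 FPKM) and Cd3g (6.89 and 3.71 FPKM), while Cd2 stood at 6.49 and 6.16 FPKM. Tcf7, a factor of early T cells, stood at 4.75 and 7.20 FPKM (ratio 1.52, 1.25 to 1.83). Bcl11b (0.14 and 0.30 FPKM) and Trat1 (0.20 and 1.09 FPKM) were too low to be measurable. Their part in the Ccr9 value was not tested.

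Spib encodes Spi-B, an ETS transcription factor of plasmacytoid dendritic cells and B cells. Spib stood at 4.72 and 1.92 FPKM, from about 200 and 75 reads, with a ratio of 0.407 (0.307 to 0.531). Its close relative Spi1, which encodes PU.1 of myeloid cells and stem cells, was listed at 106 and 130 FPKM, a ratio of 1.22 (1.16 to 1.30). Most B lineage genes moved in the same direction as Spib. Of 14 measurable ones, 10 were lower by 1.5-fold or more and 0 higher, and their median difference was −0.87 on the log2(FPKM + 1) scale. Among all measurable genes, 6.13% were that much lower. Pou2af1 stood at 4.03 and 4.01 FPKM, and Ms4a1 at 2.65 and 2.16 FPKM (ratio 0.815, 0.578 to 1.15). The summed level of all 15 B lineage genes was 199 and 96.9 FPKM, and 0 of them were unlisted. Igll1, a surrogate light chain gene of B cell precursors, was listed at 11.7 and 3.46 FPKM, and Cd79a, a signalling chain of the B cell receptor, at 44.5 and 22.6 FPKM. The part of B lineage cells in the Spib value was not tested.

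Klk1 encodes tissue kallikrein, a secreted protease that mouse plasmacytoid dendritic cells transcribe at a high level. The gene was listed at 4.37 and 1.76 FPKM, from about 62 and 23 reads, with a ratio of 0.403 (0.237 to 0.655). Klk1 belongs to a family of close copies, the Klk1b genes, between which reads could be split. Its transcript of 954 bases matched 13 such copies at 81.9 to 94.2% of aligned bases, and 28.4% of its 50-base windows occurred unchanged in at least 1 copy. Of the 13 copies, 12 were listed in neither library, and Klk1b27 was listed only in wild type, at 0.42 FPKM. For Siglech, Cox6a2, Spib, Runx2, Batf3, Ccr9 and Xcr1, 0% of such windows occurred in the relatives compared.

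Runx2 encodes a transcription factor known for bone formation, which is also highly expressed in plasmacytoid dendritic cells, where it supports their exit from the bone marrow. It was listed at 14.7 and 14.8 FPKM, from about 1309 and 1246 reads, with a ratio of 1.01 (0.929 to 1.09). This interval is the narrowest of the 10 and ends far above the upper bound for Siglech, 0.555. Its difference on the log2(FPKM + 1) scale was 0.01, and it was −0.05 with equal upper quartiles, −0.19 after centring on genes of similar length and 0.19 with equal FPKM sums, so its sign followed the scaling. The related Runx1, a stem cell factor, was listed at 13.9 and 17.5 FPKM and Runx3 at 32.1 and 37.2 FPKM. Osteoblast genes are given beside it, and their part in the Runx2 value was not tested. Bglap and Dmp1 were not listed, the osteoblast factor gene Sp7 was listed in the knockout-labelled library alone at 0.13 FPKM, and Col1a1 stood at 0.14 and 0.17 FPKM. The matrix genes Ibsp (2.73 and 0.88 FPKM) and Spp1 (4.24 and 2.46 FPKM) were the 2 measurable osteoblast genes, and both were lower.

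**Figure D2:**
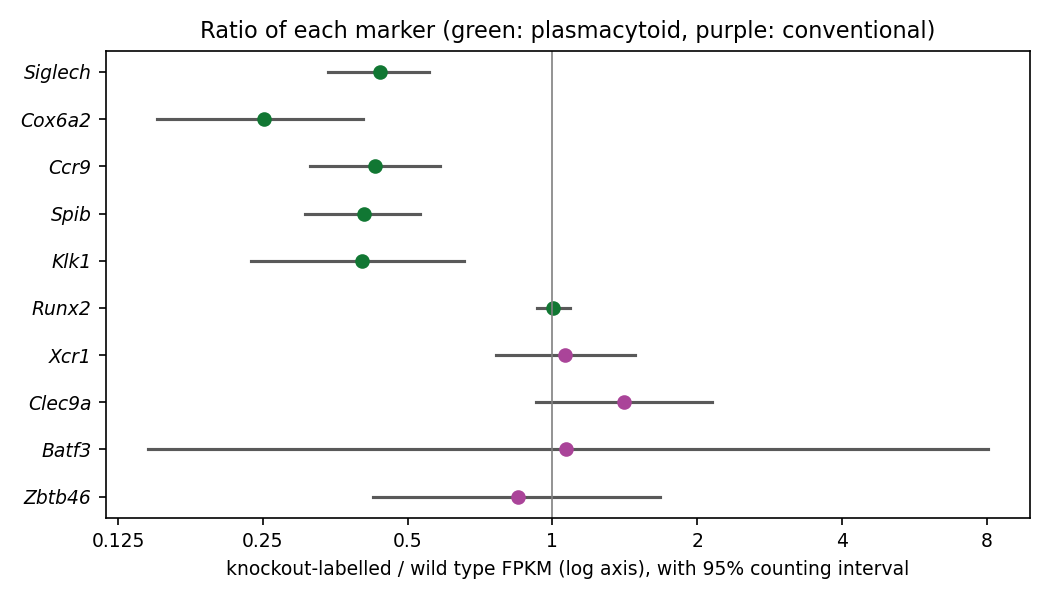
Ratio of FPKM in the knockout-labelled library to that in the wild type library for each marker on a log axis, with 95% counting intervals as bars (green, plasmacytoid; purple, conventional). The intervals of Siglech, Cox6a2, Ccr9, Spib and Klk1 lie below 1, that of Runx2 runs from 0.929 to 1.09, and those of the 4 conventional markers all hold 1.

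The conventional markers were scarce. Xcr1, the receptor of type 1 conventional dendritic cells for the chemokine XCL1, was listed at 1.12 and 1.19 FPKM, from about 76 and 75 reads, a ratio of 1.06 (0.765 to 1.49). Clec9a, their receptor for dead cells, was listed at 0.86 and 1.21 FPKM, from about 42 and 56 reads, a ratio of 1.41 (0.925 to 2.15). Zbtb46 encodes a transcription factor that marks conventional dendritic cells and their committed precursors. It was listed at 0.60 and 0.51 FPKM, from about 22 and 17 reads, a ratio of 0.850 (0.424 to 1.68). Batf3 encodes the factor needed for type 1 cells. It was listed at 0.29 and 0.31 FPKM, from about 3 reads in each library, and its ratio of 1.07 had an interval from 0.144 to 8.04. The intervals of Batf3 and Zbtb46 held the ratio of Siglech, 0.438, whereas for Xcr1 and Clec9a the lower bounds, 0.765 and 0.925, lay above the ratio of Siglech. The relative Batf, which is used by several blood lineages, was far more abundant than Batf3, at 41.4 and 34.6 FPKM.

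The order of listed levels differed between the libraries. The neighbouring pairs that changed places did not differ beyond counting error in the knockout-labelled library. In the wild type library Runx2 was the highest, followed by Cox6a2, Siglech, Spib, Klk1, Ccr9, Xcr1, Clec9a, Zbtb46 and Batf3. Neighbours in this order differed beyond counting error except Spib and Klk1, and the neighbouring pairs among the last 4 genes. Runx2 exceeded the next member, Cox6a2, 1.53-fold (1.24 to 1.91). In the knockout-labelled library Runx2 exceeded the next member, Siglech, 5.30-fold (4.31 to 6.59). From Siglech down to Ccr9 no neighbours in that order differed beyond counting error, and Clec9a and Xcr1 stood above Ccr9.

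Counts of lower and higher genes took measurable genes that differed by 1.5-fold or more on the log2(FPKM + 1) scale, which understates the change of low genes. Of the 10 members, 8 were measurable, and Batf3 and Zbtb46 were not. Of the 8, 5 were lower by that rule and 0 higher. Among all 11985 measurable genes, 6.13% were that much lower (735 genes) and 6.11% that much higher (732 genes). These shares are the background for every list counted by this rule. With equal FPKM sums, which moved the median of all genes from 0.01 to 0.18, the split became 401 lower and 1490 higher, and with equal upper quartiles 888 lower and 571 higher. The members were chosen with these values known, so nothing is read from these counts.

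The median difference of the 8 members was −0.85, and that of all genes was 0.01. Cox6a2 had a difference of −1.63, and 60 of the 11985 genes (0.501%) were as low or lower. Spib (−0.97), Klk1 (−0.96) and Siglech (−0.96) lay close together, with 207, 215 and 216 genes as low or lower. Ccr9, at −0.73, had 406 (3.39%). After centring on genes of similar length, Cox6a2 stood at −1.30, Spib at −0.96, Siglech at −0.95, Ccr9 at −0.81 and Klk1 at −0.73.

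**Figure D3:**
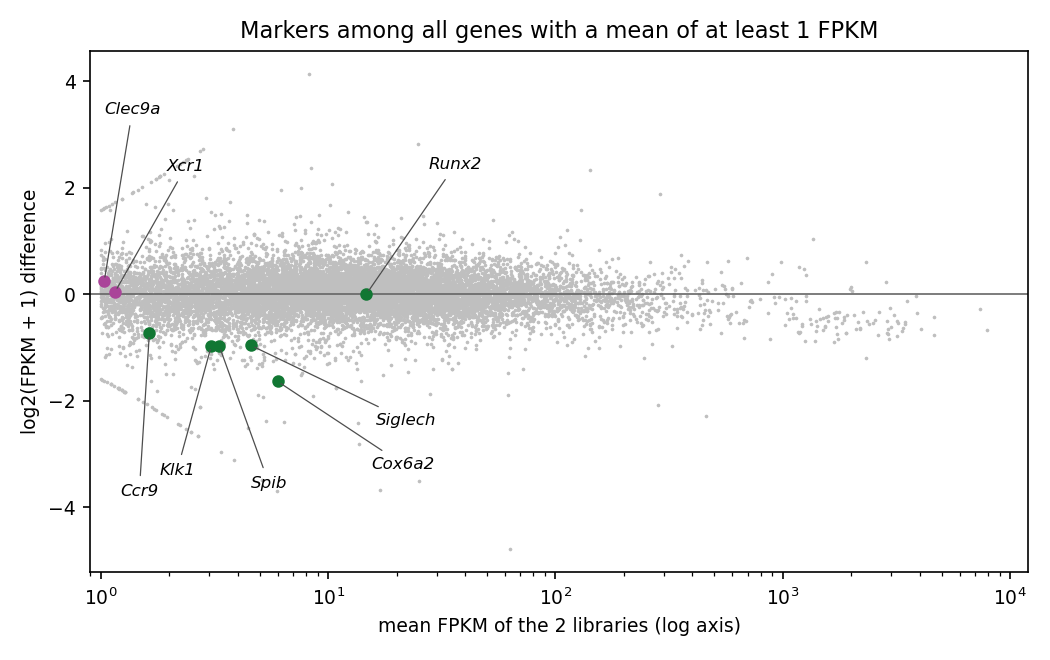
Difference in log2(FPKM + 1), knockout-labelled minus wild type library, against mean FPKM on a log axis for the 11985 measurable genes (grey), with the plasmacytoid (green) and conventional (purple) markers named. Cox6a2, Siglech, Spib, Klk1 and Ccr9 lie below most genes, from −1.63 to −0.73, and Runx2, Xcr1 and Clec9a lie within the body of the genes.

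Other genes of plasmacytoid dendritic cells were mixed. Of 23 listed, 18 were measurable, and of these 5 were lower by 1.5-fold or more, 1 was higher and 12 were neither, with a median difference of −0.16. The lower genes were Irf7, Ly6d, Tlr7, Lag3 and Bst2. Lag3 and Bst2 no longer reached 1.5-fold with equal FPKM sums or after length centring, and these and Tlr7 did not with a pseudocount of 5 FPKM, so that 3, 3 and 2 genes were lower. Irf7, the factor that drives type I interferon and is itself induced by it, was listed at 26.2 and 8.55 FPKM, a ratio of 0.326 (0.278 to 0.380). Ly6d, a surface marker of early lymphoid and plasmacytoid cells, was listed at 19.3 and 7.28 FPKM, a ratio of 0.378 (0.283 to 0.503). Tlr7, the endosomal receptor for single-stranded RNA, was listed at 4.66 and 2.30 FPKM, the inhibitory receptor gene Lag3 at 9.07 and 5.65 FPKM, and Bst2, an interferon-induced surface protein and plasmacytoid marker, at 60.5 and 40.0 FPKM.

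Among transcription factor genes of this list, Irf7 was lower, while Tcf4, Irf8, Bcl11a and Zeb2 were not lower by 1.5-fold. Irf8, which is also on the type 1 conventional list, had a ratio of 0.817 (0.772 to 0.864). Tcf4 was listed at 14.1 and 18.9 FPKM, a ratio of 1.34 (1.26 to 1.44). Its difference on the log2(FPKM + 1) scale was 0.40, and it was 0.12 after length centring. Bcl11a, a factor that plasmacytoid and B cells need, was listed at 54.4 and 43.3 FPKM (0.797, 0.753 to 0.843). Its listed length was 3156 and 3724 bases, for about 2612 and 2277 reads. The Bcl11a ratio therefore also carries this difference in length, which its interval does not cover. Zeb2, a repressor needed for plasmacytoid development, was listed at 10.4 and 17.6 FPKM (1.68, 1.57 to 1.80). The difference of Zeb2 on the log2(FPKM + 1) scale, 0.70, was 0.36 after length centring, short of 1.5-fold. The 2 most abundant genes of this list were Plac8 (748 and 688 FPKM) and Ly6c2 (283 and 269 FPKM), both of which other bone marrow cells also express.

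**Figure D4:**
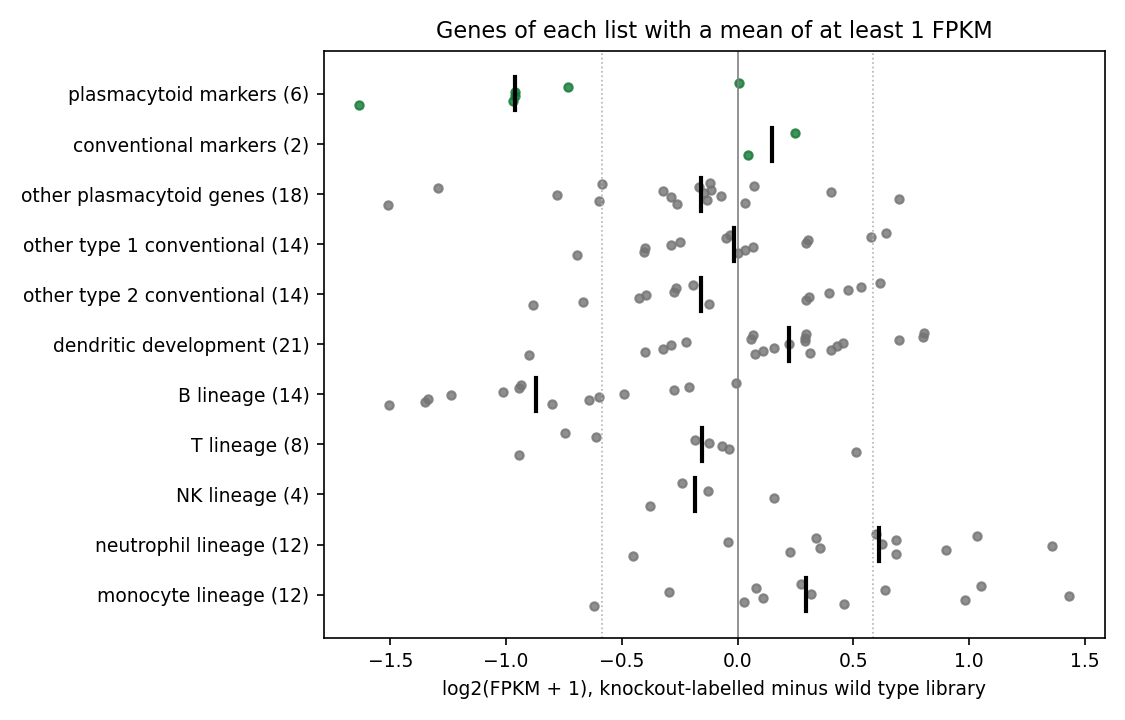
Differences in log2(FPKM + 1), knockout-labelled minus wild type library, for the measurable genes of each list (1 point per gene, number in parentheses, black bar for the median, dotted lines at 1.5-fold). The plasmacytoid markers (median −0.96) and the B lineage (−0.87) lie lowest, the 4 other dendritic cell lists have medians between −0.16 and 0.22, and the neutrophil lineage lies highest (0.61).

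Other genes of type 1 conventional dendritic cells lay on both sides of 0. Of 20 listed, 14 were measurable. By the 1.5-fold rule 1 was lower, 1 higher and 12 neither, and the median difference was −0.02. With equal FPKM sums 0 were lower. Itgax, which encodes the integrin CD11c, was listed at 3.78 and 1.96 FPKM, a ratio of 0.519 (0.409 to 0.651). Ifi205, an interferon-inducible gene, was the higher one, at 3.68 and 6.30 FPKM. Irf8, the factor that type 1 cells need, was listed at 65.5 and 53.5 FPKM, a ratio of 0.817 (0.772 to 0.864), and Cd24a at 208 and 212 FPKM.

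Of 20 genes of type 2 and mature conventional dendritic cells, 19 were listed and 14 were measurable. By the 1.5-fold rule 2 were lower, 1 higher and 11 neither, and the median difference was −0.16. Only 1 was lower with equal FPKM sums. Ccr7, the receptor that brings mature dendritic cells and naive lymphocytes to lymph nodes, was listed at 2.73 and 1.02 FPKM, a ratio of 0.374 (0.233 to 0.580). The peptidase gene Dpp4 was listed at 17.8 and 10.9 FPKM. The lectin gene Mgl2 was higher, at 7.35 and 11.8 FPKM, and Sirpa, a surface protein of type 2 cells and other myeloid cells, stood at 18.9 and 27.9 FPKM.

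Receptors and factors of dendritic cell development were all expressed. Of 21 genes, all measurable, 1 was lower by 1.5-fold or more, 3 were higher and 17 neither, and the median difference was 0.22. Flt3, the receptor that drives dendritic cell development and marks multipotent progenitors, was the lower one, at 155 and 82.5 FPKM, a ratio of 0.533 (0.514 to 0.553). Higher were Zeb2, Csf2rb, the shared chain of the receptors for GM-CSF and related cytokines (25.9 and 46.0 FPKM), and Cebpa, a factor of granulocyte and monocyte progenitors (27.8 and 49.2 FPKM). After length centring Zeb2 no longer reached 1.5-fold, while Csf2rb and Cebpa still did. In the same libraries 7 of 12 neutrophil genes were higher by 1.5-fold or more and 0 lower, and their summed level was 8557 and 11856 FPKM. Of 12 monocyte genes, 4 were higher and 1 lower, with sums of 522 and 660 FPKM. None of these 24 genes was unlisted, and their part in the levels of the dendritic cell markers was not tested.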

How the data were processed

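The deposited table of each library gives a gene identifier, RefSeq transcripts, a length and an FPKM value, per the file headers. The submitters' processing notes name HISAT, HISAT2, RSEM and the mm9 build; versions, settings and strandedness were not given in the sources used here. RefSeq (GRCm38.p6) gave symbols for 17169 of 17216 genes; a gene absent from a file counted as 0 and is called not listed. The difference is log2(FPKM + 1), knockout-labelled minus wild type; ratios are of FPKM. No test was possible with 1 library per genotype. Reads were estimated by bringing 536 and 510 low values of short genes with 1 transcript closest to whole numbers (86.0% and 88.8% within 0.15), with steps of 64.8 and 70.1 after subtracting 44 and 41 bases from the length. Rounded reads gave exact conditional 95% intervals of ratios and Poisson intervals of levels. A simulation drew Poisson reads from the same model that the procedure inverts. It checked the code and cannot show that the model holds for these data. Length centring subtracted the median of the 200 genes nearest in length. Members and lists were chosen with earlier results of these data known. Besides the members, genes were named as the 6 largest differences and 2 most abundant of each dendritic cell list, 2 and 2 of other cell types, and paralogs; not all are printed. Other genes were named after their values were seen. Windows were compared between GENCODE M21 transcripts. The tools were Biopython 1.88, matplotlib 3.10.9, scipy 1.17.1, pandas 2.3.3, numpy 2.4.6 and Python 3.11.15.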

Additional observations from a re-analysis of the deposited data

How the results depend on the processing

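Siglech, Cox6a2, Ccr9, Spib and Klk1 remained negative under every pseudocount, scaling and length setting run. The count of members at least 1.5-fold lower (5) was 1 with a pseudocount of 5 FPKM, 1 with a mean of at least 5 FPKM, where 2 members pass, and 1 with a fold of 2 on the log2(FPKM + 1) scale. The median difference of the members (−0.85) was −1.15 with a pseudocount of 0.1 FPKM, −0.38 with a pseudocount of 5 FPKM and −0.41 with no filter on low values, which adds Batf3 and Zbtb46. Of the other plasmacytoid genes, 2 were lower with a pseudocount of 5 FPKM, 3 with equal FPKM sums and 3 after length centring, against 5. Of the other type 1 genes, 0 were lower with a pseudocount of 5 FPKM, a mean of at least 5 FPKM or equal sums, against 1. Of the type 2 genes, 0 were lower with a pseudocount of 5 FPKM and 1 with a mean of at least 5 FPKM or equal sums, against 2. A larger pseudocount shrinks the differences of low genes by construction, and a higher required mean drops low genes from the counts. Equal FPKM sums scale all values of the knockout-labelled library up. The cause of the changes after length centring was not tested. Xcr1 was −0.08 after length centring and 0.05 before. Requiring a counting interval without 1 and using ratios without a pseudocount were chosen after seeing the data, and both left 5 members. The protein comparison planned was not run. No paired analysis was possible because each genotype has 1 library. Batf3, Zbtb46 and Clec9a are limited by depth.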

Other observations

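Chemokine receptor genes other than Ccr9 and Xcr1 lay on both sides of 0. Of 14 listed, 9 were measurable, and of these 1 was lower by 1.5-fold or more (Ccr7) and 2 were higher. The higher genes were Ccr2, which brings monocytes out of the bone marrow, at 13.5 and 29.2 FPKM, and Ccr1, a receptor of myeloid cells, at 1.47 and 3.12 FPKM. Cxcr4, which holds stem cells and progenitors in the marrow, was the most abundant, at 52.4 and 62.0 FPKM. Batf2, an interferon-induced relative of Batf3, was listed at 2.48 and 0.91 FPKM, a ratio of 0.367 (0.202 to 0.636).

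Siglech, Cox6a2, Spib and Klk1 all lie on chromosome 7, a feature noticed after their values were seen. Of 932 other measurable genes of chromosome 7, 8.15% were lower by 1.5-fold or more, against 6.13% of all genes, and their median difference was −0.04. Neighbours were the nearest 20 measurable protein-coding genes other than the members, 10 on each side in the RefSeq order. Of these, 0 were lower by 1.5-fold or more around Siglech, 2 around Cox6a2, 1 around Spib and 1 around Klk1. Members were left out, so Spib and Klk1, both lower, could not count among each other's neighbours. The median difference of these neighbours was 0.35 around Siglech, −0.07 around Cox6a2, −0.10 around Spib and −0.11 around Klk1. Spib and Klk1 lie near each other, with promoters at chr7:44532072-44532321 and chr7:44225110-44225359. Their neighbours can therefore be partly the same genes, and their values are not separate observations.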
